A study of Mus musculus with 14 samples.

Results

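The pericytes described here are the brain nuclei that the authors of the study named pericytes when they clustered their single-nucleus RNA sequencing (snRNAseq) data. They number 223 of 31324 brain nuclei and of 109000 nuclei in the whole series. The control library holds 201 of them among 16649 nuclei (1.21%), and the library from mice with endothelial loss of *Tgfbr1* (CKO) holds 22 among 14675 (0.150%). The control profile is therefore set mainly against those of vascular smooth muscle cells (vSMCs) and endothelial cells (ECs) of the same library, and the CKO nuclei are described where their depth allows. Shares of other labels differed as well. They were lower in CKO for vSMCs (2.70% and 0.702%), microglia (0.775% and 0.0750%) and glia (7.37% and 2.86%), and higher for ECs (14.9% and 20.1%).

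Pericytes are mural cells that lie within the basement membrane of capillaries and post-capillary venules, in direct contact with ECs, whereas vSMCs wrap arteries, arterioles and larger veins. In the brain they are recruited by platelet-derived growth factor B from ECs, which acts on the receptor PDGFRB, and they are needed for a tight blood-brain barrier. Their membrane potential, set in part by an ATP-sensitive potassium channel built from KCNJ8 and ABCC9, and their response to vasoactive signals are studied as controls of capillary blood flow.

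Each brain library was made from vascular fragments of 2 pooled brains, enriched by Ficoll centrifugation and caught on a filter, and 40000 nuclei were loaded for capture in droplets by PIPseq. CKO mice were *Cdh5CreER;Tgfbr1 CKO/-* (the driver is called VEcadCreER in the labels) and received 4-hydroxytamoxifen between postnatal days 3 and 5. The control genotype is wild type in the labels, and the paper describes phenotypically wild-type controls, typically *Cdh5CreER;Tgfbr1 CKO/+*. Age was postnatal day 14, although the labels say young adult. This Cre is active in ECs, so that the pericytes are neighbors of the deleted cells, and their own *Tgfbr1* was not the target. The minus allele of the CKO genotype is not confined to ECs, however, and CKO pericytes carry it where the typical control has a plus allele. The tissue in the labels is brain endothelial cells, although ECs are 2475 of the 16649 control nuclei. With 1 library per genotype no difference between genotypes was tested, and nuclei of 1 library are not replicates.

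Pericytes were among the shallowest nuclei of the control library. Their median was 502 unique molecular identifiers (UMIs, which count each captured transcript once), with quartiles of 428 and 656 and a highest value of 3565, and 14 of the 201 nuclei had at least 1000. Among the 21 labels of the control library, microglia alone had a lower median, 402 UMIs. The control vSMCs (449 nuclei) had a median of 1516 UMIs and the ECs a median of 1347. CKO pericytes had a median of 403 UMIs and a highest value of 600. Summed over nuclei, the pericytes hold 121845 of 49798325 UMIs in control and 9213 of 31033373 in CKO. The 2 libraries share 2 barcodes, and 0 of these belong to pericytes.

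Expression is given as UMIs summed over the nuclei of a label and scaled to the label's total, as CPM. All intervals are at 95% and cover counting error alone. They are exact: binomial for a share, Poisson for a value, and binomial given the summed count for a ratio. A gene is called higher in pericytes at a ratio of at least 4, and lower at a ratio of at most 0.25, among genes with at least 20 UMIs over the labels compared. The authors clustered the nuclei on these same genes, so the values against other labels describe the pericytes and test nothing. Where the pericytes had no UMI of a gene, the fold is a lower bound against a floor of 3 counts per label, which is 24.6 CPM in control pericytes. The exact upper limit for a gene at 0 is wider, 30.3 CPM in control and 400.4 CPM in CKO pericytes. Folds given at the floor are therefore larger than those at the exact limit.

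The marker genes were first read against the label. *Pdgfrb*, the receptor for platelet-derived growth factor B, was at 5449.5 CPM in control pericytes, 516 CPM in vSMCs and 607 CPM in ECs. That is 10.6 times the vSMC level (interval 9.51 to 11.7) and 8.98 times the EC level (8.25 to 9.76). In nuclei with 300 to 700 UMIs it was 3.68 times the vSMC level, which ends that call, and 13.6 times the EC level. *Kcnj8*, the pore of the ATP-sensitive potassium channel, was at 607, 23.3 and 82.6 CPM, and *Abcc9*, its sulfonylurea receptor subunit, at 3324, 102 and 441 CPM in the same order. Both channel genes lie side by side on chromosome 6, 15757 bases apart on the same strand (GRCm39). *Atp13a5*, a P-type ATPase of the P5B group, was at 9857 CPM in pericytes, 206 CPM in vSMCs and 647 CPM in ECs, which is 47.9 and 15.2 times. Over all nuclei the 4 defining markers were at least 4 times higher in control pericytes than in any of the other labels of the library. In nuclei with at least 1000 UMIs *Kcnj8* was 2.73 times the EC level and no longer called. The 14 control pericytes of that depth had the 4 defining markers at 9410 CPM in sum, against 19238 CPM over all control pericytes. Here and below this setting thus changes the nuclei along with the depth, and which of these ends a call was not tested.

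Most pericyte nuclei carried several of these markers. In the control library 42 nuclei had a UMI of all 4 defining markers, 98 of 3, 49 of 2 and 12 of 1, and 0 had none. Depth moved with this number, since the median was 430.5 UMIs in nuclei with 1 marker and 548.5 in nuclei with 4. Of the 22 CKO nuclei, 17 had at least 2 of the markers and 1 had none.

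Shares of nuclei with a UMI were compared after thinning each nucleus to 500 UMIs, which leaves out 98 of the 201 control pericytes and 13 of the 603 oligodendrocytes. The nuclei used had medians of 656 UMIs (pericytes) and 2386 UMIs (oligodendrocytes) before thinning. *Pdgfrb* was found in 91.3% of the thinned pericytes (interval 84.1 to 95.9), 26.0% of vSMCs and 22.6% of ECs. In oligodendrocytes, which serve as the background since they lack pericyte genes, its share was 0.339%. Without thinning the shares were 93.0% of all control pericytes, at a median of 502 UMIs, and 0.995% of oligodendrocytes, at 2328 UMIs. *Atp13a5* was found in 91.3% of thinned pericytes, *Abcc9* in 68.9% and *Kcnj8* in 20.4%, against 0 of the 590 thinned oligodendrocytes for each (upper limit 0.623%).

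**Figure D1:**
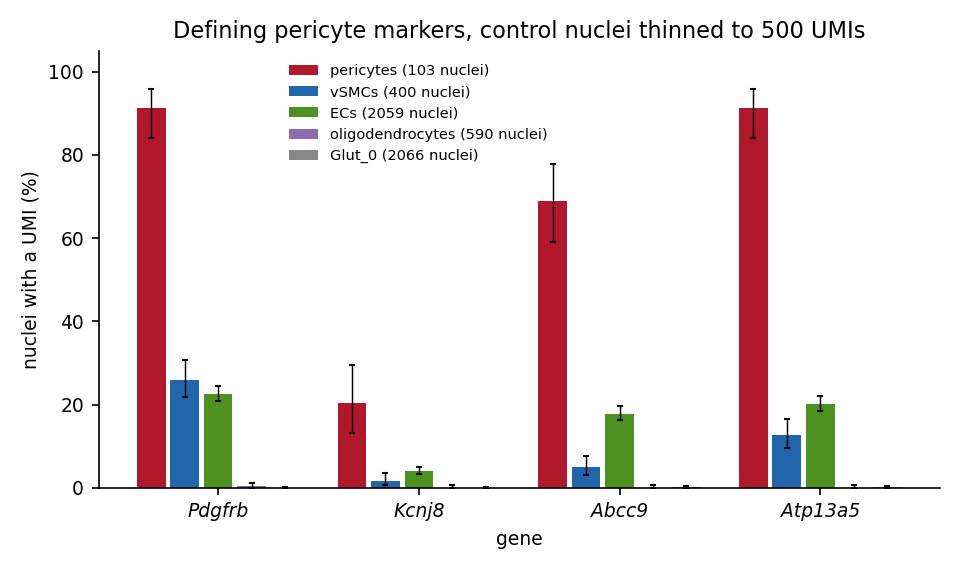
Share of control nuclei (in %) with at least 1 UMI of each of the 4 defining pericyte markers after thinning to 500 UMIs, for pericytes, vSMCs, ECs, oligodendrocytes and the neuronal label Glut_0; error bars are exact binomial 95% intervals. The pericyte bars stand at 91.3% for *Pdgfrb* and *Atp13a5*, and those of oligodendrocytes and Glut_0 are at or near 0.

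Of the 9 further markers, chosen because pericyte studies use them, 5 were called higher in pericytes than in vSMCs and the same 5 higher than in ECs, beside 4.93% and 6.93% of all genes. The medians over the list were 5.95 and 4.85 times. *Notch3*, a receptor of mural cells, was at 2725 CPM in pericytes, 451 in vSMCs and 210.1 in ECs. *Slc6a20a*, a proline transporter, was at 1904, 164 and 172 CPM in that order. Under the glia label it was at 1982 CPM, so pericytes were at 0.961 times that level. The other called markers were *Cspg4*, which codes for the proteoglycan NG2, *Anpep*, an aminopeptidase, and *Cox4i2*, a subunit of cytochrome c oxidase. Against vSMCs *Notch3*, *Cspg4* and *Anpep* lost the call in nuclei with 300 to 700 UMIs, and *Notch3* and *Cox4i2* in nuclei with at least 1000. Against ECs *Anpep* and *Cox4i2* lost it in the latter. *Rgs5*, a regulator of G protein signaling that is widely used as a pericyte marker, did not separate the labels, at 5253 CPM in pericytes, 4684 in vSMCs and 5631 in ECs. *Vtn*, the matrix protein vitronectin, was 3.60 and 2.70 times higher and so below the threshold in both comparisons. At least 2 defining markers were found in 42.6% of control EC nuclei, 31.4% of control vSMC nuclei and 94.0% of control pericytes. The part of pericyte transcripts under the EC and vSMC labels in the levels and ratios given here was not tested.

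Markers of other cell types were also counted in the pericyte nuclei. The 12 EC markers summed to 2544 CPM (310 UMIs) in control pericytes, 7026 CPM in vSMCs and 16796 CPM in ECs, and to 3365 CPM (31 UMIs) in CKO pericytes. All 12 had a UMI in control pericytes, with *Flt1*, a receptor for vascular endothelial growth factor, as the most abundant at 82 UMIs. Of the 12, 11 were called lower than in ECs, beside 59.3% of all genes. The exception was *Emcn*, at 394 CPM in pericytes and 376 CPM in ECs, which was called higher than in vSMCs. In CKO pericytes 6 of the 12 had a UMI, *Flt1* led with 23, and *Cldn5* and *Pecam1* were at 0. The 10 vSMC markers summed to 1247 CPM (152 UMIs) in control pericytes against 5044 CPM in vSMCs and 455 CPM in ECs. Of these, 9 had a UMI in control pericytes, *Casq2*, a calcium store protein, led with 50, and *Cnn1* was at 0. *Casq2* was itself higher in pericytes than in vSMCs (8.35 times, and 2.36 times in nuclei with 300 to 700 UMIs), whereas 5 of the 10, *Acta2*, *Tagln*, *Myh11*, *Cnn1* and *Pln*, were called lower, beside 58.0% of all genes. CKO pericytes had 2 UMIs of the vSMC markers in all. The part of such transcripts in the results below was not tested, and the 118 control pericytes with no UMI of an EC marker were also compared on their own, as an alternative.

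Markers of further lineages were counted in the same way. The neuron list had 4 UMIs in control pericytes, all of *Rbfox3*, with *Snap25*, *Syt1* and the other 5 markers at 0, and 0 UMIs in CKO pericytes. The same list was at 32.8 CPM in control pericytes, 1179 CPM in vSMCs and 194 CPM in ECs. The microglia list had 1 UMI in control pericytes, with *Csf1r* and *P2ry12* at 0, and in CKO pericytes *Ptprc* had 1. The oligodendrocyte list had 4 of 8 markers with 1 UMI each (32.8 CPM, *Mbp* among them, *Mog* and *Mag* at 0), and 0 UMIs in CKO. Fibroblast markers summed to 1395 CPM in control pericytes (8 of 10 with a UMI, *Col1a2* highest at 60 UMIs, *Lum* at 0) and 2496 CPM in CKO (4 of 10, *Bicc1* highest). Astrocyte markers summed to 590.9 CPM (8 of 8, *Slc1a2* highest at 31 UMIs) and 651 CPM in CKO (4 of 8, *Aqp4* and *Gfap* at 0). The list for oligodendrocyte precursors summed to 1321 CPM in control (5 of 6, *Sox10* at 0) and 651 CPM in CKO, where its only gene with a UMI was *Cspg4*. That gene is itself a pericyte marker and held 144 of the 161 control UMIs. The ependymal and choroid list summed to 336 CPM (2 of 4, *Ttr* highest at 40 UMIs, *Foxj1* at 0), and to 109 CPM in CKO, against 4427 CPM in control vSMCs and 1123 CPM in control ECs. The part of neuronal and choroid transcripts under the vSMC label in the lower ratios to vSMCs was not tested.

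Nuclei were also compared singly by their marker counts. In the 199 control pericytes with at least 5 UMIs of pericyte or vSMC markers, the pericyte markers made up a median of 100% of these UMIs and never less than 53.8%. The median of this share was 63.0% in control vSMCs and 97.1% in control ECs, so it did not set pericytes apart from ECs. Against EC markers the median was 100% in 198 nuclei, with a lowest value of 47.1%, and 158 nuclei had 90% or more. The same share was a median of 28.3% in control ECs. With the 4 defining markers in place of all 13, the medians were 100% in pericytes, with a lowest value of 33.3%, and 3.57% in ECs. For CKO pericytes the median with all 13 markers was 88.9% over 21 nuclei, with a lowest value of 20.0%.

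**Figure D2:**
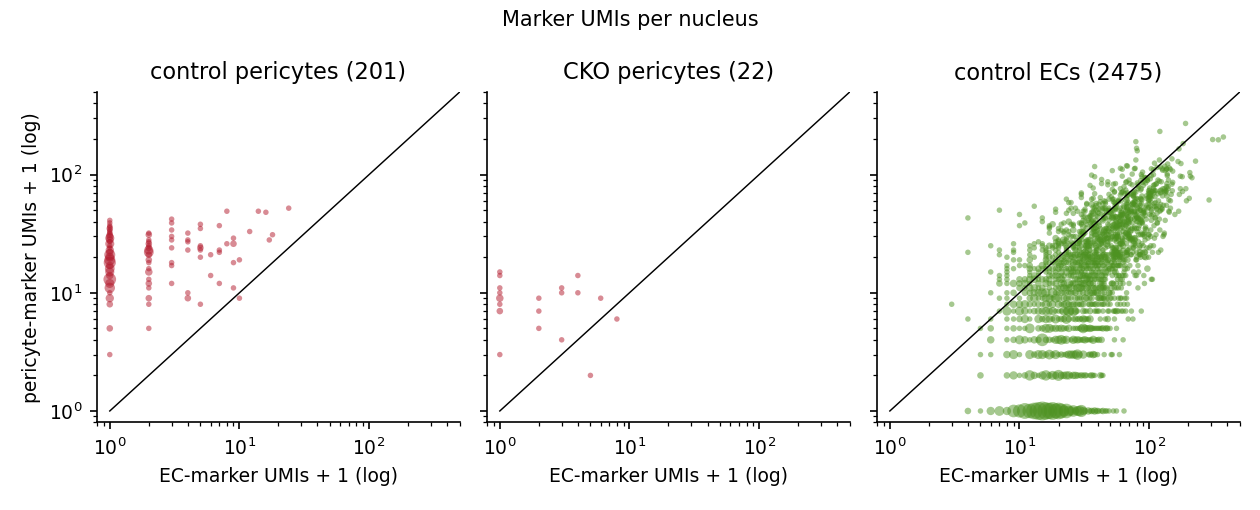
UMIs of the 13 pericyte markers (vertical axis, plus 1, log scale) against UMIs of the 12 EC markers (horizontal axis, plus 1, log scale) in each of 201 control pericytes, 22 CKO pericytes and 2475 control ECs; point size gives the number of nuclei and the line marks equal counts. Nearly all control pericytes lie above the line, and most ECs lie below it.

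Pericyte transcripts were spread over fewer genes than those of vSMCs and ECs. The 50 most abundant genes held 36.2% of the UMIs of control pericytes, 13.3% of those of vSMCs and 15.3% of those of ECs. Astrocytes, at 36.4%, and oligodendrocytes, at 39.7%, were like pericytes in this. At an equal depth of 100000 UMIs the pericyte profile had 6853 genes, the vSMC profile 11632 and the EC profile 10055. Among nuclei of like depth, with 300 to 700 UMIs, the 50 highest genes held 41.3% in pericytes, 27.2% in vSMCs and 23.8% in ECs. In the CKO library the 50 highest genes held 34.5% of pericyte UMIs. At 9000 UMIs control pericytes had 2201 genes and CKO pericytes 2398.

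Mitochondrial transcripts (13 genes) made up 0.0648% of the UMIs of control pericytes, 0.812% of those of vSMCs and 0.338% of those of ECs. Ribosomal protein genes (82) made up 0.129%, 2.87% and 2.24% in the same order. Both shares were also lower in pericytes within the window of 300 to 700 UMIs, where they were 0.0315% each, against 1.74% and 4.56% in vSMCs and 0.203% and 1.52% in ECs. Their part in the ratios below was not tested.

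Against vSMCs, 9732 genes were tested in the control library. Of these, 480 (4.93%) were called higher in pericytes and 5645 (58.0%) lower, and the median ratio was 0.160. Of the lower genes, 3842 had no UMI in pericytes, and with these set to the floor of 3 counts 2085 were called lower and the median was 0.604. Against ECs, 11452 genes were tested, 794 (6.93%) were higher and 6786 (59.3%) lower, with a median of 0.119. Here 5002 were at 0 in pericytes, and with the floor 1997 were lower and the median was 0.934. Most genes called lower thus had no UMI in pericytes, and the part of the smaller pericyte profile in this was not tested. TMM scaling shifted all log2 ratios by 0.62 against vSMCs and by 0.35 against ECs. With it 728 genes were higher and 4902 lower than in vSMCs, and 956 higher and 6434 lower than in ECs.

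Pericytes and vSMCs differ in median depth, and so most groups below are also given for nuclei with 300 to 700 UMIs, 157 pericytes against 106 vSMCs and 696 ECs. In that window 1064 genes could be tested against vSMCs, the median ratio was 1.04, and 252 were higher and 345 lower. Of the 252 higher genes, 201 were also higher over all nuclei. Against ECs 2619 genes could be tested, 410 were higher, 350 of them also over all nuclei, and 1561 were lower, with a median of 0.136. The window changes the nuclei and the genes tested along with the depth, and which of these moves a value was not tested.

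**Figure D3:**
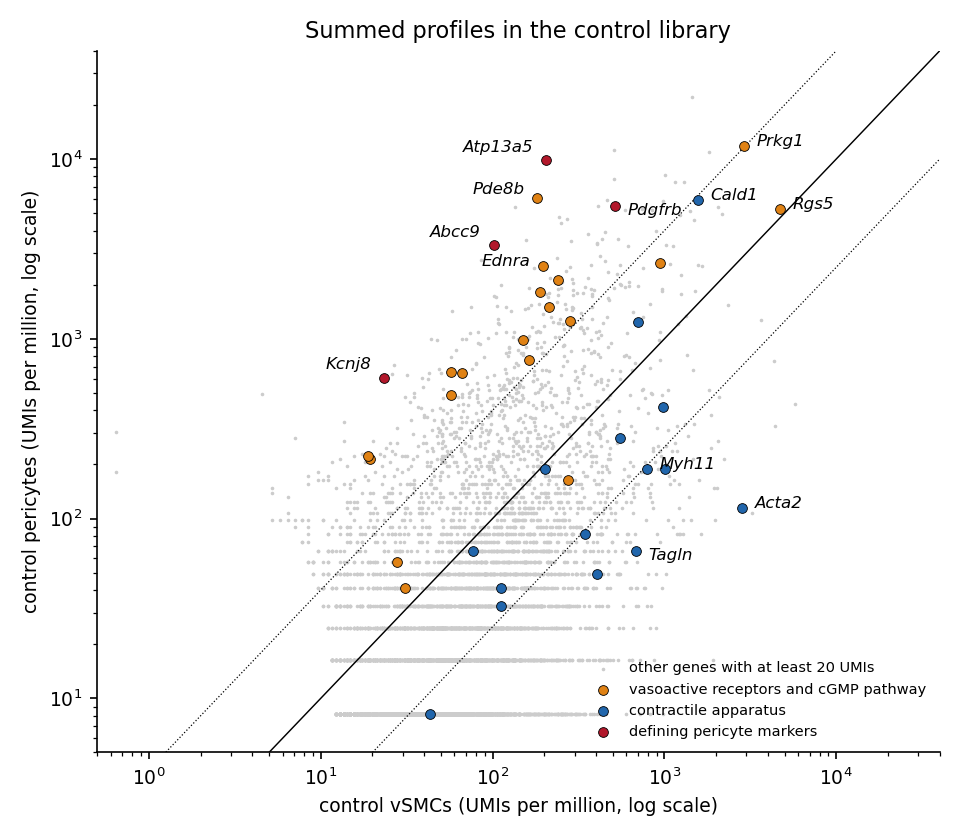
Each point is a gene with at least 20 UMIs over control pericytes and vSMCs and a UMI in both, by its CPM in vSMCs (horizontal, log scale) and in pericytes (vertical, log scale). The solid line marks equal levels and the dotted lines a 4-fold difference; defining markers (red) and genes of vasoactive receptors and cGMP signaling (orange) lie mostly above, contractile genes (blue) mostly below.

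Genes for membrane potential and calcium entry were called in both directions. Of 23 tested genes for ion channels and calcium handling, 11 were higher than in vSMCs and 8 lower, beside 4.93% and 58.0% of all genes, with a median of 3.28 beside 0.160. Against ECs, 12 of 22 were higher and 4 lower, beside 6.93% and 59.3%, with a median of 4.80 beside 0.119. With genes at 0 set to the floor the list medians were 3.28 and 4.78, and those of all genes 0.604 and 0.934. *Trpc4* and *Trpc6*, which code for cation channels, were at 985 and 862 CPM in pericytes against 47.2 and 61.4 in vSMCs and 65.8 and 30.0 in ECs. *Ano1*, a calcium-activated chloride channel that depolarizes mural cells, was at 1707 CPM in pericytes, 211 in vSMCs and 91.4 in ECs. *Cacna1c*, the pore of the L-type calcium channel, was at 5843, 981 and 202 CPM, and *Itpr2*, a calcium release channel of the endoplasmic reticulum, at 1559, 187 and 355 CPM. In oligodendrocytes *Itpr2* was at 1364 CPM, so pericytes were at 1.14 times that level.

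At matched depth the channel genes split. Of the 11 genes higher than in vSMCs, 9 could be tested in the window and 6 kept their call, among them *Abcc9* (47.9 times), *Trpc4* (31.2), *Itpr2* (14.8) and *Kcnj8*. *Trpc6*, *Ano1* and *Cacna1c* lost it, at 3.08, 2.85 and 2.45 times. Against ECs all 10 that could be tested kept theirs, with *Cacna1c* at 139 times. In nuclei with at least 1000 UMIs (14 pericytes) 7 of 9 kept the call against vSMCs, without *Cacna1c* and *Cacna1h*, beside 212 of all 480 higher genes. Against ECs 7 of 12 channel genes did, beside 448 of all 794 higher genes. *Itpr1*, *Itpr2*, *Kcnmb1* and *Kcnj8* were among those that did not, with *Kcnj8* at 2.73 times and *Kcnmb1* without a UMI.

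Among the 8 genes lower than in vSMCs, *Kcnma1*, the large-conductance potassium channel, had 1 UMI in pericytes and 398 in vSMCs (ratio 0.0319, interval 0.000805 to 0.179). *Kcnq5*, a voltage-gated potassium channel, had 1 and 438 (0.0290, 0.000732 to 0.162), and *Ryr2*, a calcium release channel, 2 and 320 (0.0793, 0.00957 to 0.289). *Slc8a1*, the sodium-calcium exchanger, was 8.28-fold lower and *Atp2a2*, the calcium pump of the endoplasmic reticulum, 5.16-fold lower. Of the 8 genes 1 could be tested in the window, *Atp2a2*, and it was lower there, with 4 UMIs in pericytes and 25 in vSMCs. TMM scaling ended its call, and nuclei with at least 1000 UMIs ended those of *Atp2a2* and *Slc8a1*.

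Vasoactive receptors and cGMP signaling formed the list with the largest share of higher genes among the function lists. Against vSMCs 14 of 21 tested genes were higher and 2 lower, beside 4.93% and 58.0% of all genes, with a median of 6.54. Against ECs 17 of 21 were higher and 2 lower, beside 6.93% and 59.3%, with a median of 9.18. Nitric oxide acts on mural cells through soluble guanylyl cyclase, whose subunits were high. *Gucy1a1* was at 1247 CPM in pericytes, 284 in vSMCs and 195 in ECs, *Gucy1b1* at 1814, 189 and 151 CPM and *Gucy1a2* at 2109, 239 and 79.1 CPM. *Prkg1*, the kinase that cGMP activates, had 1441 UMIs and stood at 11827, 2913 and 1275 CPM. Its substrate *Irag1*, which restrains calcium release, was 6.54 times the vSMC and 17.6 times the EC level. Among phosphodiesterases, *Pde5a*, which breaks down cGMP, was 7.02 and 7.72 times higher, and *Pde8b*, which breaks down cAMP, 33.6 and 18.3 times. *Pde3a* was 20.5 times the EC level and, at 2.79 times the vSMC level, was not called there.

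Among receptors, *Ednra*, for endothelin, was at 2536 CPM in pericytes, 195 in vSMCs and 172 in ECs. *Tbxa2r*, for thromboxane, was 11.8 and 9.18 times higher, *Cysltr2*, for cysteinyl leukotrienes, 9.83 and 11.8 times, and *P2ry14*, for UDP-glucose, 11.5 and 10.8 times. *Adora2a*, a receptor for adenosine, was 11.0 times the vSMC level and, at 3.28 times the EC level, was not called against ECs. *Ednrb* and *Adra1a* had no UMI in pericytes. In the window 8 of the 14 genes kept their call against vSMCs, among them *Pde8b* (20.0 times), *Gucy1b1* (10.9), *Ednra* (4.65) and *P2ry14* (5.03). *Prkg1* (1.58), *Gucy1a1* (1.77), *Irag1* (1.79), *Rgs4* (1.85), *Pde5a* (2.71) and *Gucy1a2* (3.39) did not. Against ECs all 14 that could be tested kept it. In nuclei with at least 1000 UMIs 8 of the 14 kept it against vSMCs, without *Gucy1a1*, *Gucy1a2*, *Prkg1*, *Pde5a*, *Adora2a* and *Rgs4*. Against ECs 13 of the 17 did, without *Gucy1a1*, *Pde5a*, *S1pr3* and *Rgs4*. Over all genes, 212 of the 480 higher genes were also higher in these nuclei against vSMCs and 448 of the 794 against ECs.

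Of 18 tested genes of the contractile apparatus 0 were higher and 10 lower than in vSMCs, beside 4.93% and 58.0% of all genes, with a median of 0.238 beside 0.160. With genes at 0 set to the floor 7 of the 18 were lower, with a median of 0.344, beside 2085 of 9732 and a median of 0.604 over all genes. *Acta2*, smooth muscle actin, was at 115 CPM (14 UMIs) in pericytes, 2831 in vSMCs and 62.4 in ECs, 24.6-fold lower than in vSMCs. *Tagln*, an actin-binding protein, was 10.4-fold lower, *Tpm2*, a tropomyosin, 8.19-fold and *Myh11*, smooth muscle myosin, 4.20-fold. *Cnn1*, calponin, had no UMI in pericytes and 118 in vSMCs, at least 3.10-fold lower. In nuclei with 300 to 700 UMIs *Acta2* had 8 UMIs in pericytes and 585 in vSMCs, and *Myh11* 18 and 209. TMM scaling took *Myh11*, *Myl9*, *Ldb3* and *Actn1* out of the calls. *Acta2* was found in 3.88% of thinned pericytes (interval 1.07 to 9.65), 59.0% of vSMCs and 1.75% of ECs, against 0 in oligodendrocytes, so that the pericyte share was close to that of ECs.

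Not every contractile gene was low. *Cald1*, caldesmon, which binds actin and myosin, was at 5934 CPM in pericytes, 1574 in vSMCs and 999.7 in ECs. *Mylk*, myosin light chain kinase, was at 1239, 699.6 and 244 CPM. Neither was called against vSMCs, and both were called higher than in ECs, a call that ended for both in nuclei with at least 1000 UMIs. Against ECs 5 of 14 contractile genes were higher and 0 lower, beside 6.93% and 59.3% of all genes, with a median of 2.59, and *Tagln* among them had 8 UMIs in pericytes and turned to 0.892 times in the window.

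Many contractile genes carry a CArG box, the element bound by serum response factor, and so the promoters in RefSeq (GRCm38.p6) were searched for it by name, in the 250 bases before the transcription start. It was in 439 of 27025 genes (1.62%). Of the 15 contractile genes that have a promoter there, 2 had a match, *Myl9* and *Ldb3*, which were 5.30- and 5.28-fold lower in pericytes than in vSMCs (*Ldb3* with 1 UMI, ratio 0.189, interval 0.00473 to 1.09). Of the 21 vasoactive and cGMP genes and the 3 defining markers with a promoter there, 0 had a match. Among the other lists *Trpc6*, *Lama2*, *Pdgfc*, *Srf* and *Igf2* had a match. Of these *Trpc6* and *Lama2*, chosen for display after their values were seen, were higher in pericytes than in vSMCs over all nuclei. A match describes these letters in this window and shows no binding. Only the strict form, with A or T alone between CC and GG, was searched. A gene without a match may therefore carry a box in another form or place. The matches are shown with 10 bases on each side, to let the contractile promoters be read beside those of genes high in pericytes, and capitals mark the CArG box. They lie at chr2:156775293-156775322 on the plus strand for *Myl9*, chr14:34588697-34588726 on the minus strand for *Ldb3*, chr9:8544010-8544039 on the plus strand for *Trpc6* and chr10:27616962-27616991 on the minus strand for *Lama2*.
Myl9: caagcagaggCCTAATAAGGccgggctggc
Ldb3: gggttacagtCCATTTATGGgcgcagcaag
Trpc6: cctttcgatcCCTTTAAAGGtggggatcgt
Lama2: aaccaaggacCCTTTAAAGGcccaggcctg

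Of 17 tested transcription factors of mural cells, 6 were higher than in vSMCs and 2 lower, beside 4.93% and 58.0% of all genes (median 2.67 beside 0.160, or 0.604 with the floor). Of 18 tested against ECs 11 were higher and 2 lower, beside 6.93% and 59.3% (median 5.56 beside 0.119, or 0.934 with the floor). *Ebf1*, a factor of pericyte commitment, had 1335 UMIs and was at 10957 CPM in pericytes, 1826 in vSMCs and 1985 in ECs. *Zic1* and *Zic4*, zinc finger factors of brain development, were 5.69 and 8.83 times the vSMC level and kept their calls in the window, at 12.3 and 4.86 times. *Tbx2*, *Foxd1*, *Ebf1* and *Heyl* lost theirs there, with *Ebf1* at 2.47 times, and the call of *Ebf1* against ECs ended as well (3.26 times). *Tbx18*, a T-box factor used to trace mural cells, was 3.67 times the vSMC level and 7.84 times the EC level. Its highest other label was glia, with pericytes at 1.23 times that level. For *Zic4* it was also glia (1.68 times), and for *Zic1* it was Glut_5 (1.39 times). *Myocd*, the coactivator that drives smooth muscle genes with serum response factor, had 3 UMIs in pericytes and 214 in vSMCs (ratio 0.178, interval 0.0364 to 0.527), and its relative *Mrtfb* had 3 and 561 (0.0679, 0.0140 to 0.199). TMM scaling ended the call of *Myocd*, and nuclei with at least 1000 UMIs ended that of *Mrtfb* and, against ECs, of *Ebf1*.

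In the PDGF pathway *Pdgfrb* was the 1 higher gene of 6 in both comparisons, beside 4.93% of all genes against vSMCs and 6.93% against ECs. Lower were 4 of 6 against vSMCs and 3 of 6 against ECs, beside 58.0% and 59.3%. *Pdgfb*, the ligand that ECs release, was at 82.1 CPM in pericytes (10 UMIs), 239 in vSMCs and 592 in ECs, 7.21-fold lower than in ECs. *Pdgfd*, the other ligand of this receptor, was 5.86-fold lower than in ECs. Both calls ended in nuclei with at least 1000 UMIs.

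Of 13 tested Notch genes, 2 were higher and 3 lower than in vSMCs, beside 4.93% and 58.0% of all genes (median 1.27), and 3 were higher and 3 lower than in ECs, beside 6.93% and 59.3% (median 1.33). *Notch3* was 6.05 and 13.0 times higher, and its targets *Heyl* 4.93 and 7.21 times and *Hey2* 3.51 and 9.47 times. *Hey2* was called against ECs alone. In the window *Notch3* and *Heyl* stood at 2.71 and 1.60 times the vSMC level and lost their call, while all 3 kept it against ECs. The 3 lower genes were the ligands *Jag2* and *Dll4* and another target, *Hey1*, which had no UMI in pericytes. *Dll4*, of arterial and sprouting ECs, had 2 UMIs in pericytes and 1177 in ECs (ratio 0.0809, interval 0.00979 to 0.293).

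Genes of TGF-beta and BMP signaling belong to the pathway of the receptor that the CKO removes in ECs. Of 32 tested, 1 was higher and 9 lower than in vSMCs, beside 4.93% and 58.0% of all genes (median 0.338 beside 0.160). Against ECs 5 were higher and 14 lower, beside 6.93% and 59.3% (median 0.480 beside 0.119). With the floor the list medians were 0.368 and 0.501, beside 0.604 and 0.934 over all genes. *Bmp5*, a ligand, was at 648 CPM in pericytes, 49.8 in vSMCs and 36.5 in ECs, and was 8.74 times the vSMC level in the window. *Bmpr1a*, a type I receptor, was 21.4 times the EC level. Other labels stood nearer or higher. *Bmp5* was at 400 CPM under the glia label, and *Bmpr1a* was at 328 CPM in pericytes and 402 CPM in astrocytes. *Tgfbr1* itself had 4 UMIs in control pericytes, 32.8 CPM against 65.9 in vSMCs and 69.1 in ECs, ratios of 0.498 (0.133 to 1.31) and 0.475 (0.129 to 1.23). *Tgfbr2*, its partner, was 6.89-fold lower than in ECs. *Id1*, a target of BMP signaling, was 14.3-fold lower than in vSMCs and 25.0-fold lower than in ECs, with 4 UMIs. In nuclei with at least 1000 UMIs 2 of 8 low genes kept their call against vSMCs and 7 of 14 against ECs, where *Tgfbr2* was among those that lost it. Over all genes, 4392 of 5645 lower genes were also lower there against vSMCs and 5473 of 6786 against ECs.

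Of 13 tested transporters of solutes, 5 were higher and 4 lower than in vSMCs, beside 4.93% and 58.0% of all genes (median 0.708), and 6 were higher and 5 lower than in ECs, beside 6.93% and 59.3% (median 1.97). *Slc30a10*, which exports manganese, was at 640.2 CPM in pericytes, 25.9 in vSMCs and 56.2 in ECs. *Slc19a1*, the reduced folate carrier, was 5.03 and 4.82 times higher, and *Slc38a11*, an amino acid transporter, 6.06 and 17.8 times. *Slc2a1*, the glucose transporter of the blood-brain barrier, was 17.1-fold lower than in ECs, and *Slc16a1*, which carries lactate, 12.3-fold. In the window *Atp13a5* (32.6), *Slc6a20a* (8.72) and *Slc30a10* (19.8) kept their call against vSMCs. *Slc19a1* (2.56) and *Slc38a11* (1.45) lost it there, and also in nuclei with at least 1000 UMIs, where *Slc16a1* and *Slc19a1* were no longer called against ECs.

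Of 22 genes of basement membrane and matrix, 4 were higher and 5 lower than in vSMCs, beside 4.93% and 58.0% of all genes (median 1.42), and 2 were higher and 2 lower than in ECs, beside 6.93% and 59.3% (median 0.993). *Lama2*, a laminin alpha chain, was at 2068 CPM in pericytes, 255 in vSMCs and 199 in ECs. Astrocytes stood at 1664 CPM, so pericytes were at 1.24 times their level. *Lama4*, the alpha chain along the endothelium, was at 1510.1, 288 and 679 CPM, and *Lamc3*, a gamma chain, at 492, 65.9 and 61.5 CPM. *Col4a1*, the main collagen of the membrane, differed less, at 2585, 1563 and 1812 CPM. Among the lower genes *Eln*, elastin, was 30.4-fold lower than in vSMCs and, at 0.636 times the EC level, was not called against ECs. *Fbln5*, which assembles elastin, had 1 UMI against 925 in vSMCs (ratio 0.0137, interval 0.000347 to 0.0766). In the window 0 of the 4 higher genes kept the call against vSMCs (*Lama2* 3.94, *Lama4* 3.70, *Lamc3* 2.51 and *Nid1* 2.25 times), and of the lower genes *Eln* had 7 UMIs in pericytes and 820 in vSMCs. Against ECs *Lama2* and *Lamc3* kept theirs, at 26.1 and 13.1 times. In nuclei with at least 1000 UMIs *Lama2*, *Lama4* and *Nid1* also lost the call against vSMCs.

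Of 17 genes for adhesion and junctions, 5 were higher and 2 lower than in vSMCs, beside 4.93% and 58.0% of all genes (median 1.65), and of 16 tested against ECs 6 were higher and 2 lower, beside 6.93% and 59.3% (median 2.88, or 3.20 with the floor). *Itga1*, a collagen receptor, was at 7403 CPM in pericytes, 1306 in vSMCs and 1464 in ECs. *Gjc1*, the connexin of mural gap junctions, was at 1904, 249.6 and 349 CPM. *Cdh2*, N-cadherin, which joins pericytes to ECs, was 5.18 times the vSMC level and alone kept its call in the window (16.7 times), where *Itga1*, *Itga4*, *Gjc1* and *Cspg4* lay between 1.75 and 2.90 times. In nuclei with at least 1000 UMIs *Cdh2* and *Itga4* lost the call, and against ECs *Itga1* and *Gjc1* did.

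Signals from mural cells to ECs summed to 5515 CPM in pericytes, 3479.7 CPM in vSMCs and 5417 CPM in ECs, with *Ptn* as the most abundant. Of 12 tested, 0 were higher and 4 lower than in vSMCs, beside 4.93% and 58.0% of all genes (median 0.522, or 0.665 with genes at 0 set to the floor). Against ECs 2 of 11 were higher and 6 lower, beside 6.93% and 59.3%, with a median of 0.159 (0.572 with the floor). *Angpt1*, the ligand that stabilizes vessels through TIE2, was at 279 CPM in pericytes, 182 in vSMCs and 20.3 in ECs. Under the glia label it was at 335 CPM, so pericytes were at 0.834 times that level. *Ptn*, pleiotrophin, had 558 UMIs and was 3.07 and 2.53 times higher, below the threshold. *Vegfc* and *Slit3*, a growth factor and a guidance cue, had no UMI in pericytes and were at least 10.7- and 13.1-fold lower than in vSMCs.

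**Figure D4:**
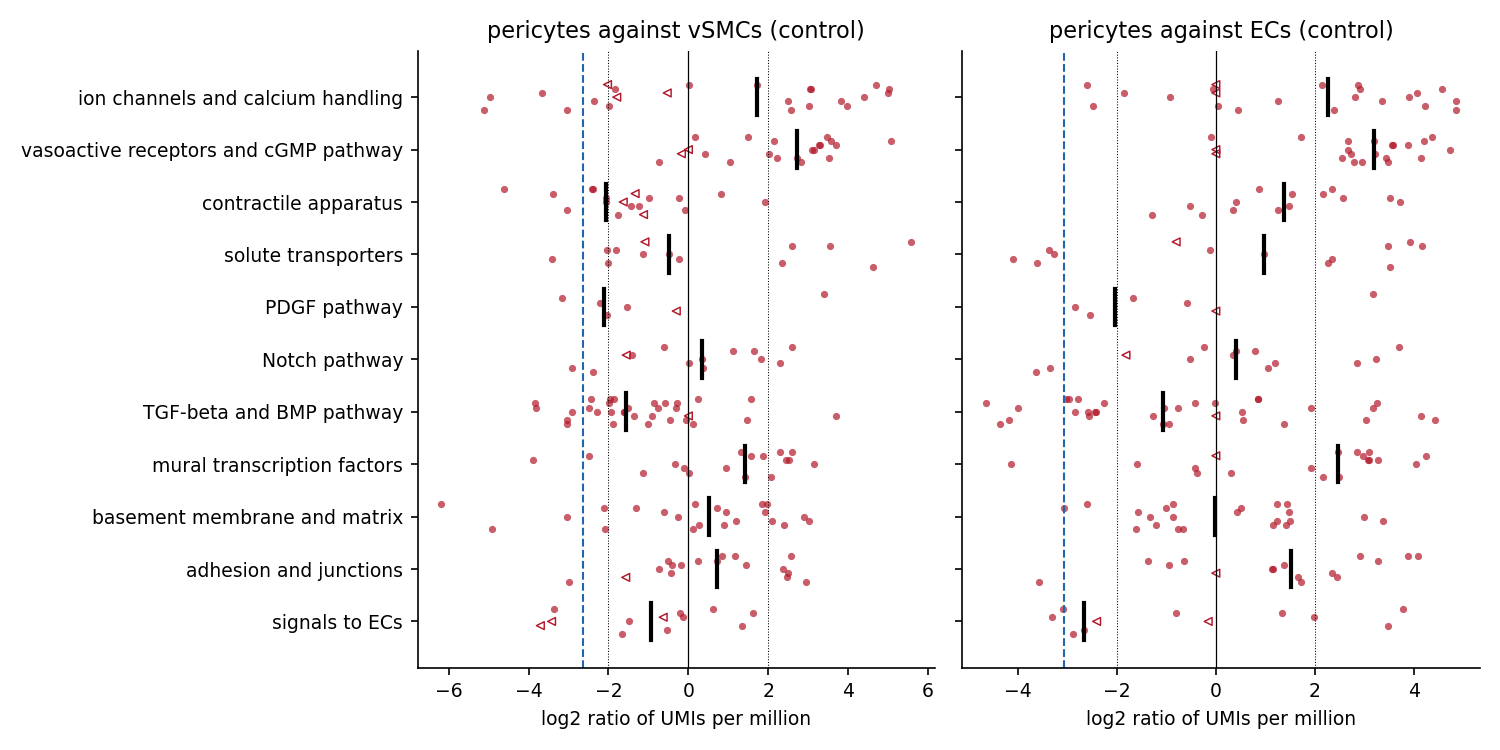
Log2 ratio of CPM in control pericytes over vSMCs and over ECs for each tested gene (points) of 11 function lists; open triangles are genes without a UMI in pericytes, drawn at the limit that 3 counts set, or at 0 where that limit is above the other label. Black bars are list medians, the blue dashed line is the median of all tested genes and dotted lines mark a 4-fold difference.

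The genes with the highest ratios were taken across the whole transcriptome as well. Among genes with at least 50 UMIs over both labels, the 10 with the highest ratio to vSMCs held 3 of the 4 defining markers, *Atp13a5*, *Abcc9* and *Kcnj8*. *Gm36823*, a predicted gene, was at 492 CPM in pericytes and 4.53 in vSMCs (109 times). *Grm3*, a metabotropic glutamate receptor, had 655 UMIs and was at 5376 CPM in pericytes, 135 in vSMCs and 276 in ECs. It was 58.9 times the vSMC level at matched depth and 15.4 times in nuclei with at least 1000 UMIs. *Pde8b* and *Slc30a10*, described above, were also in this group, with *Plxdc1*, a plexin domain protein, at 26.9 times and *Adap2os* at 25.4 times. The 10 genes with the lowest ratio had no UMI in pericytes. They were the neuronal or synaptic genes *Syt1* (at least 24.6-fold lower), *Lingo2*, *Htr2c* and *Nkain2*, the ribosomal protein genes *Rps21*, *Rpl9* and *Rps26*, and *Cox7c*, *Bmx* and *Gkn3*, the last 2 known from arteries.

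Against ECs the 10 highest genes ranged from 30.5 to 48.7 times. The list was led by *Pakap*, an anchor of protein kinase A, at 1108 CPM in pericytes, 185 in vSMCs and 22.8 in ECs. It also held *Ppargc1b*, a coactivator of mitochondrial genes, *Carmil1*, a regulator of actin capping, *Galnt17*, a glycosyltransferase, and *Trpc1*, a cation channel. *Dtx3*, *Klhl29*, *Cap2*, *Gm32067* and *4930554G24Rik* completed it. The 10 lowest had no UMI in pericytes and were between 11.0- and 16.9-fold lower at the least. They included *Myh10*, a nonmuscle myosin, *Tiam1*, an activator of Rac, and *Grb14*, an adaptor of the insulin receptor, with *Fnbp1l*, *Map4k2*, *Rps21*, *Rpl9*, *Fam13a* and *Znrf1*.

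Specificity was read against all other labels at the same time. Of 618 genes with at least 30 UMIs in control pericytes, 82 (13.3%) were at least 4 times higher than in the highest other label. That other label was ECs for 28 of the 82 genes, vSMCs for 26 and glia for 12. The 15 with the largest ratio were led by *Gm13536* (29.9 times), *Gm36823* (21.8) and *Tbx3os1* (17.1), a transcript antisense to a T-box gene, followed by *Pde8b* (16.9), *Col28a1* (16.5), a collagen, and *Atp13a5* (15.2). *Dlc1*, which limits actomyosin tension, had 2685 UMIs and was at 22036 CPM in pericytes and 21599.9 CPM in CKO pericytes, 14.2 times the highest other label, ECs. *Ggt5*, which converts leukotriene C4, was at 13.1 times, *Ednra* at 13.0 and *P2ry14* at 10.8. *Morrbid*, a long noncoding RNA, was at 11.3 times, and *4930554G24Rik*, *4833422C13Rik*, *Gm32067* and *Gm12002*, which have no assigned function here, lay between 10.5 and 13.5 times.

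The transcripts of pericyte markers lay mainly under other labels. Of all UMIs of the 13 pericyte markers, the pericyte label held 5.31% in control and 0.302% in CKO, and of those of the 4 defining markers 14.5% and 1.02%. ECs held 63.7% of the defining UMIs in control and 93.2% in CKO. In the library as a whole the sum of the 4 defining markers was at 325 CPM in control and 352 CPM in CKO, 1.08 times (interval 1.06 to 1.11), while *Atp13a5* alone was at 0.912 times (0.877 to 0.949). The sum of the 13 markers was at 1515 and 1784 CPM. *Slc6a20a* was at 121.9 CPM of the control and 54.8 CPM of the CKO library (0.450 times). Its highest control level outside pericytes was under the glia label, 1982 CPM. That label has 1227 control and 419 CKO nuclei, and its part in the difference was not tested. Of all control nuclei 9.30% had at least 2 defining markers, and 12.2% of these nuclei are under the pericyte label, whereas in CKO 10.8% had them and 1.07% of these are. With ECs holding most UMIs of the defining markers, the library level of these markers says little about pericytes, and that of *Slc6a20a* is also not theirs alone.

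In CKO pericytes against control pericytes, 914 genes could be tested. Of these 33 (3.61%) were higher and 262 (28.7%) lower, with a median of 0.661. Of the lower genes 219 had no UMI in CKO, where 3 counts already make 326 CPM, and with these at the floor 50 were lower and the median was 1.04. TMM scaling shifted the log2 ratios by -1.45, and 2 genes were then higher and 470 lower. No direction is given for the whole profile, since it turns on the scaling and on the genes at 0. Genes also enter this test mainly through their UMIs in control, the larger profile.

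Defining markers were present in both genotypes. *Abcc9* was at 3324 CPM in control and 3690.4 in CKO pericytes (ratio 1.11, interval 0.758 to 1.58). *Pdgfrb* was at 5449.5 and 2714 CPM (0.498, 0.320 to 0.742) and *Atp13a5* at 9857 and 5644 CPM (0.573, 0.425 to 0.756). *Kcnj8* had 74 UMIs in control and 1 in CKO (0.179, 0.00447 to 1.03), which is called lower on 1 UMI, with an interval that includes no difference. *Ebf1* was at 10957 and 11723 CPM, *Prkg1* at 11827 and 9443 CPM and *Cald1* at 5934 and 8683 CPM.

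No tested gene of the marker and function lists was called higher in CKO pericytes, beside 3.61% of all genes. Lower calls were 1 of 4 defining and 3 of 9 further pericyte markers, 2 of 4 vSMC and 2 of 6 EC markers, 5 of 17 vasoactive genes, 3 of 10 channel genes, 4 of 8 transporters, 3 of 6 Notch genes, 3 of 7 contractile genes, 2 of 12 transcription factors, 5 of 16 matrix genes, 5 of 13 adhesion genes, 1 of 3 TGF-beta and BMP genes and 1 of 3 signals to ECs, beside 28.7% of all genes. These counts turn on the scaling and on the minimum of UMIs, which is summed over both genotypes. Control pericytes hold 121845 UMIs and CKO pericytes 9213, so genes meet the minimum mainly through their control UMIs. An unchanged gene near the minimum would have few or no UMIs in CKO and could be called lower for that alone. The counts of lower calls, and the 28.7% of all genes, therefore do not by themselves show a lower level in CKO. With TMM 3 of 4 defining and 7 of 9 further pericyte markers were lower, beside 470 of all 914 genes, with *Pdgfrb* at 0.182 and *Atp13a5* at 0.209 times the control level. Many of these genes had no UMI in CKO, as all of the lower transporter, contractile and adhesion genes and 3 of the 5 vasoactive genes. *Gucy1b1* had 221 UMIs in control and 2 in CKO (ratio 0.120, interval 0.0144 to 0.437), and *Gucy1a2* 257 and 2 (0.103, 0.0124 to 0.376). *Vtn* had 205 and 1 (0.0645, 0.00163 to 0.363). *Tgfbr1* had 4 and 3 UMIs, too few for a statement on its level. *Acta2*, *Tagln* and *Myh11* had no UMI in CKO pericytes, and their upper limits of 3.99, 7.75 and 2.30 times the control level leave a rise of less than these sizes undetectable at this depth.

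The genes with the highest CKO ratio rested on few UMIs. *Sulf1*, a heparan sulfatase, had 19 UMIs in CKO and 1 in control (ratio 251, interval 39.9 to 10441), and all 19 were in 1 nucleus of 567 UMIs with 5 pericyte and 7 EC marker UMIs. *Rad51b*, *Pcca*, *Stat3*, *Pak2* and *Ctnnd1* followed, from 8.82 to 12.1 times on 8 to 11 CKO UMIs each.

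The 6 lowest genes had no UMI in CKO pericytes. *Xist*, which is made in female cells, had 603 UMIs in control pericytes, in 111 nuclei. At the floor it was at least 15.2-fold lower in CKO (exact upper limit 0.0812 times). It was at 2247 CPM in control ECs and 0.292 CPM in CKO ECs, so the libraries differ in *Xist*. The Y-linked genes *Ddx3y*, *Uty*, *Kdm5d* and *Eif2s3y* had 5, 5, 1 and 3 UMIs in control pericytes and 1, 1, 1 and 0 in CKO pericytes. *Ddx3y* was at 95.8 CPM in control ECs and 200.4 CPM in CKO ECs, so the control pool also holds transcripts made in male cells. Sex and genotype cannot be told apart when CKO is set against control. *Grm7*, a metabotropic glutamate receptor, had 415 UMIs in 152 of the 201 control nuclei, 3406 CPM, at least 10.5-fold lower. It was at 83.3 CPM in CKO ECs and 225 CPM in CKO vSMCs, against 168 and 405 CPM in control. *Cacnb2*, a calcium channel subunit, had 239 control UMIs (at least 6.02-fold), *Slco3a1*, a transporter of organic anions, 213 (5.37), *Carmil1* 182 (4.59) and *Ano4*, a relative of *Ano1*, 174 (4.39). Each of the 4 had UMIs in CKO ECs and vSMCs, as *Cacnb2* with 320 and 137.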

How the data were processed

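The deposited count matrix of brain nuclei holds UMI counts that the authors made with PIPseeker and corrected for ambient RNA with CellBender. The authors removed doublets with SOLO and mixed nuclei by hand, clustered with Seurat and deposited the labels used here. The paper names a GRCm39 index and the labels mm10. UMIs were summed per label and library and scaled to CPM. Ratios of 4 or 0.25 were called among genes with at least 20 UMIs, and 95% intervals were exact. The code was tested on simulated data. Members and lists were chosen with earlier results of these data known. Genes named are those of the fixed lists, the 10 highest and 10 lowest ratios to vSMCs and to ECs among genes with at least 50 UMIs, the 15 most specific genes with at least 30 UMIs, and the 6 highest and 6 lowest CKO ratios. Alternatives were TMM scaling, other minimums, the mean CPM per nucleus, deeper nuclei, nuclei without EC marker UMIs and other thinning. The window of 300 to 700 UMIs, the floor for genes at 0, the mitochondrial and ribosomal shares and the levels of CKO-named genes in other labels were chosen after seeing the data. TMM factors came from edgeR 4.0.16 in R 4.3.3, and the rest was computed in Python 3.11.15 with scipy 1.17.1, numpy 2.4.6 and pandas 2.3.3, and drawn with matplotlib 3.10.9. Promoters are from RefSeq. Some genes that meet these rules are not reported here.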

Additional observations from a re-analysis of the deposited data

How the results depend on the processing

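Of the counts and shares, 35 values under an alternative were within 1.5 times or the interval of the reported value, 39 moved and 0 reversed. Of the called list genes, the genes named by rank and the marker shares, 743 values did not move, 749 moved and 3 reversed, with 188 of the moves in nuclei with at least 1000 UMIs, 180 in the window of 300 to 700 UMIs and 138 under TMM scaling. The minimums and the floor are left out of these counts, since they cannot move a gene's own ratio or bound. Among the 125, 127 and 18 called list genes compared under the floor, it ended the calls of 16 against vSMCs, 6 against ECs and 8 in CKO. Further list genes called lower at 0 UMIs in CKO are outside these 18. At the floor such a gene keeps its call only where its control level is at least 4 times 326 CPM. The window turned *Tagln* to 0.892 times the EC level and *Rbfox3* to 1.04 times the vSMC level. *Emcn*, an EC marker called higher than in vSMCs, was at most 0.490 times in pericytes without EC marker UMIs, since those were chosen for having none. The window and the floor of 3 counts were chosen after seeing the data, and the other alternatives were fixed ahead of these comparisons.

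Against vSMCs the number of higher genes was 728 with TMM scaling, 1310 with a minimum of 1 UMI and 252 in the window. The number of lower genes was 3463 with a minimum of 50 UMIs, 13135 with 1, 345 in the window and 2085 with zeros at the floor. Against ECs 1590 genes were higher and 14419 lower with a minimum of 1 UMI, 410 and 1561 in the window, and 1997 were lower with the floor. The minimum sets how many genes are tested and the window how many UMIs, and beyond that the cause was not tested.

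In CKO against control pericytes, higher and lower genes were 2 and 470 with TMM scaling, 125 and 565 with a minimum of 10 UMIs, 1 and 99 with 50, and 1209 and 5339 with 1. They were 15 and 156 in nuclei without EC marker UMIs and 15 and 166 in the window, and 50 were lower with the floor. The comparison in nuclei with at least 1000 UMIs was not run, since no CKO pericyte has that depth.

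The pericyte label held 0.132% of control and 0% of CKO nuclei with at least 1000 UMIs, and 6.43% and 0.717% of ECs, vSMCs and pericytes. Nuclei with at least 2 defining markers under any label were 9.30% and 10.8%. The label's share of the UMIs of all 13 pericyte markers, 5.31% and 0.302% over all nuclei, was 0.672% and 0% in nuclei with at least 1000 UMIs, and for the 4 defining markers over all nuclei it was 14.5% and 1.02%. The library level of all 13 markers, 1515 and 1784 CPM, was 1366 and 1736 CPM in nuclei with at least 1000 UMIs, and that of the 4 defining markers over all nuclei was 324.9 and 352 CPM.

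With the mean CPM per nucleus, calls against vSMCs ended for *Notch3*, *Cspg4*, *Cacna1c*, *Kcnmb1*, *Slc19a1*, *Slc38a11*, *Heyl*, *Tbx2*, *Foxd1*, *Ebf1*, *Gucy1a1*, *Prkg1*, *Irag1*, *Rgs4*, *Nid1* and *Itga1*. In pericytes without EC marker UMIs those of *Myh11* and *Ldb3* ended, and against ECs that of *Tagln*. Depth limits the CKO profile, where a gene at 0 has an upper limit of 400.4 CPM against 30.3 CPM in control. Nuclei of 1 library per genotype show neither the spread between mice nor an effect of genotype, and labels assigned from the same counts make the marker values descriptive.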
